A study of Homo sapiens with 4 samples.

Results

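The genes of cholesterol and fatty acid synthesis were followed across the 4 arrays of a study of SUM159, a widely used line of mesenchymal, hormone receptor-negative human breast cancer cells. They were taken from a list of 34 genes, 24 of the sterol branch and 10 of the fatty acid branch, by the probe sets annotated to each gene alone. Of the 34, 31 had such a probe set, 22 in the sterol and 9 in the fatty acid branch, out of 19775 genes on the array. All 31 reached a log2 level of 6, taken here as background, on at least 1 array. FDFT1 was not analysed here, and the probe sets of CYP51A1 and FADS1 carry a further gene's annotation and were not used. The 31 genes had 69 probe sets, of which 64 reached that level, and the brightest over the 4 arrays stands for the gene unless another is named.

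The cells all carried a doxycycline-inducible vector for the microRNA miR-100, were sorted by flow cytometry for activity of aldehyde dehydrogenase (ALDH), a property used to enrich stem-like tumour cells, and were held in suspension. The groups were ALDH-positive cells with DOX, ALDH-positive control cells, ALDH-negative cells with DOX and ALDH-negative control cells, with 1 array each. The titles give doxycycline for 10 h, while the sample descriptions give doxorubicin, another drug, and 13 h, so the treated samples are called DOX here. The sources do not say whether the line was a single clone, and cells with DOX but without the construct were not analysed here. The 5p arm of miR-100 is printed because the construct is named for this microRNA, with its seed, bases 2 to 8, in capitals, from RefSeq on GRCh38.p14, chr11:122152275-122152296, minus strand.
hsa-miR-100-5p: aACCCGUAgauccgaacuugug

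The arrays had medians of 6.19 to 6.22 over all probe sets that are no controls, and correlated with r = 0.97 to 0.996. The 7 mesenchymal markers fixed for the label, VIM and AXL among them, all reached a level of 6. Of 6 epithelial markers, EPCAM, CDH1 and ESR1 did not on any array, while 3 did. KRT8 was at 9.93 to 10.51 and KRT18 at 11.97 to 12.45, and KRT19 reached 6.46 on the ALDH-negative DOX array alone. ALDH1A1, an enzyme linked to the sorted activity, was at 10.66 with DOX and 11.77 without in ALDH-positive cells, against 10.86 with DOX and 10.72 without in ALDH-negative cells. It was thus higher in the ALDH-positive array among the controls and not among the DOX arrays. ALDH1A3 differed between the fractions by 0.63 among the controls and by -1.15 among the DOX arrays, at levels of 5.855 to 7.79. ALDH2 and ALDH3A1 stayed under 6 on all arrays. The sort itself was not checked by these data. Of 6 immune markers, PTPRC, CD3E and CD14 stayed under 6 on all arrays. CD74 and LAPTM5 were higher in the ALDH-positive cells by the additive test described below, and MS4A1 reached 6 on the ALDH-positive DOX array alone. The summed log2 level of the immune list was 40.48 and 37.46 on the ALDH-positive DOX and control arrays, against 32.61 and 33.05 on the ALDH-negative ones. Its part in the results below was not tested.

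Cells build cholesterol from acetyl-CoA through mevalonate, squalene and lanosterol, and fatty acids from cytosolic acetyl-CoA through malonyl-CoA. Both routes are controlled by the sterol regulatory element-binding proteins, SREBPs, which are made as membrane proteins of the endoplasmic reticulum. When sterols are scarce, the escort protein SCAP carries them to the Golgi, where proteases release the active factor, and when sterols are plentiful, the INSIG proteins hold SCAP back. The SREBF2 product acts mainly on sterol genes and the main liver form of the SREBF1 product mainly on fatty acid genes.

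Most sterol synthesis genes were lower in ALDH-positive than in ALDH-negative cells, and so were 3 fatty acid genes. The branches were not tested against each other. An additive limma model over all 4 arrays tested the mean ALDH difference with DOX as a covariate, so that the control and the DOX pair serve as repeats of each other. At a Benjamini-Hochberg adjusted p under 0.05 over 12365 genes, 13 of 22 sterol genes fell (59.1%) and 3 of 9 fatty acid genes fell (33.3%), against a background of 9.58% of all genes lower and 13.5% higher. No member rose, and none was higher at an unadjusted limma p under 0.05 either. The median of the additive log2 differences was -0.66 over the sterol genes and -0.23 over the fatty acid genes, against 0.03 over all genes tested. The model leaves 1 residual degree of freedom and counts any difference in response between the fractions as error. Nothing says that the arrays came from separate sorts, so the p-values measure a spread between samples that may be technical. In such bulk samples fewer cells of a type and less RNA per cell cannot be told apart.

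**Figure D1:**
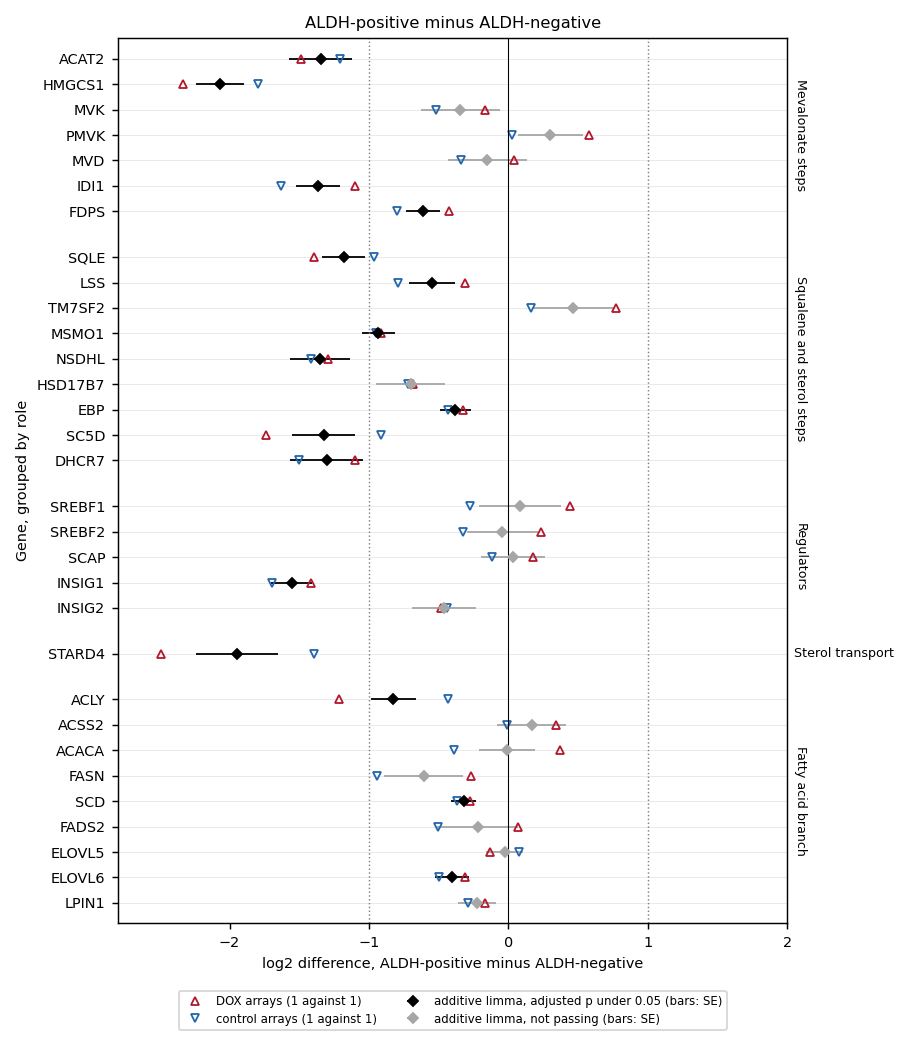
Each row is 1 gene, and the x axis gives the log2 difference of ALDH-positive minus ALDH-negative cells. Diamonds are the additive limma estimates with SE bars, black where the adjusted p was under 0.05. Triangles are the DOX and the control pair, 1 array against 1 each, and dotted lines mark 2-fold. The black diamonds all lie left of 0, HMGCS1 at -2.07 and STARD4 at -1.95 the furthest.

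The 2 pairs behind the model share no array. In the DOX arrays 9 of 22 sterol genes were 2-fold or more lower in ALDH-positive cells, against 5.32% of all genes, and in the control arrays 7 of 22, against 4.4%. ACAT2, HMGCS1, IDI1, NSDHL, DHCR7, INSIG1 and STARD4 were 2-fold lower in both pairs. Of the 9 fatty acid genes, ACLY alone was 2-fold lower in the DOX arrays and none in the control arrays. No member was 2-fold higher in either pair, where 11.4% of all genes were higher in the DOX arrays and 6.09% in the controls. The sterol median was -0.58 in the DOX arrays and -0.80 in the control arrays, against fatty acid medians of -0.165 and -0.39 and medians of all genes of 0.08 and -0.005. The sterol median thus lay 0.42 and 0.41 log2 units under the fatty acid median, a distance that 1 array a group gives no test for. Across the 31 genes the differences in the DOX and the control pair correlated with Pearson's r = 0.841, or 0.88 over the sterol genes and 0.273 over the fatty acid genes, where genes are not independent replicates.

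Promoter sequences are shown for HMGCS1, STARD4, INSIG1 and NSDHL, which fell furthest among the sterol genes whose measured probe sets all fell, because these genes moved together and their known regulators bind near the start. IDI1, whose probe sets disagreed, is not shown. SREBPs are known to act at sterol promoters with NF-Y, which binds CCAAT, and SP1, which binds GC boxes. The 250 bases before the start, 5′ to 3′ on the gene's strand, come from RefSeq on GRCh38.p14. Capitals mark matches on either strand to TCACNCCAC (a sterol regulatory element), CCAAT and GGGCGG, and matches may overlap each other. HMGCS1 has more than 1 annotated start, and the window of the outermost is given. SREBF2, which did not pass, is shown as the only one of the 30 members with a promoter window to match TCACNCCAC there.
HMGCS1, chr5:43313413-43313662, minus strand: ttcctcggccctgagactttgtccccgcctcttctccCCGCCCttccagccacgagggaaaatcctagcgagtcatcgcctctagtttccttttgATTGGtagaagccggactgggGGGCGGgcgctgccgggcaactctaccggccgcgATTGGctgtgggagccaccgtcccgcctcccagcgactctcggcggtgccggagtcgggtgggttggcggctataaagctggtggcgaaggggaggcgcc
STARD4, chr5:111512536-111512785, minus strand: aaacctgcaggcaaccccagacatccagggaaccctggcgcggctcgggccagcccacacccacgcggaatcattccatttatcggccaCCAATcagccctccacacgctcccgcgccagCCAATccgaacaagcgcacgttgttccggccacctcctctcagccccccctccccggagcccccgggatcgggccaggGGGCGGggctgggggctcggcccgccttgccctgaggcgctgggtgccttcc
INSIG1, chr7:155297628-155297877, plus strand: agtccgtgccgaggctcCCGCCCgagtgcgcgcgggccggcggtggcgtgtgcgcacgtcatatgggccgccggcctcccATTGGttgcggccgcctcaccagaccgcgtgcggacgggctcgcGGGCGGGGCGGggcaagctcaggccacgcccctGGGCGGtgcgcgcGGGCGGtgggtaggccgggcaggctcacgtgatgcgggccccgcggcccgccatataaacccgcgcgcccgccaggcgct
NSDHL, chrX:152830813-152831062, plus strand: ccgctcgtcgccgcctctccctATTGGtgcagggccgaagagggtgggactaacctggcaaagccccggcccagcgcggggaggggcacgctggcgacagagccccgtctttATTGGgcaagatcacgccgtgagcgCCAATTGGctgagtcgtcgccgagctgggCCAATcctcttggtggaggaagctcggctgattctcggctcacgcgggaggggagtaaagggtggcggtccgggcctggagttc
SREBF2, chr22:41832855-41833104, plus strand: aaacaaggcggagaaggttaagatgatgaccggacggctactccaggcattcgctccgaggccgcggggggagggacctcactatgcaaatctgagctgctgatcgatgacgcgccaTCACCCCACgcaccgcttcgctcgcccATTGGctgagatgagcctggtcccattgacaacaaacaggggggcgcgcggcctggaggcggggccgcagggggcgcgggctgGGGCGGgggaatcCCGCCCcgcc

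Counted on either strand, HMGCS1 held 2 CCAAT and 2 GGGCGG matches in its printed window. STARD4 held 2 and 1, INSIG1 held 1 and 5 with a pair of overlapping GGGCGG, and NSDHL held 5 and none with a pair of overlapping CCAAT. Promoter windows were found for 30 of the 34 genes, CYP51A1 and FADS1 included. Of the sterol windows, 18 of 27 held CCAAT (66.7%) and 25 held GGGCGG (92.6%). Of the fatty acid windows, 7 of 16 held CCAAT (43.8%) and 12 held GGGCGG (75.0%). Some genes have several windows, which can overlap. By gene, 16 of 21 sterol and 5 of 9 fatty acid genes held CCAAT in a window. For GGGCGG these were 20 of 21 and 8 of 9. Among all 35116 windows of this length, 32.0% held CCAAT, 42.6% GGGCGG and 0.883% TCACNCCAC. A match describes letters and is not a measured binding site.

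In the mevalonate steps, 4 of 7 genes fell and none rose. HMGCS1, the cytosolic HMG-CoA synthase that joins acetyl-CoA to acetoacetyl-CoA, was at a log2 level of 10.23 with DOX and 10.84 without in ALDH-positive cells, against 12.57 with DOX and 12.64 without in ALDH-negative cells. The additive difference was -2.07 ± 0.17 (SE, 4.19-fold lower, limma adjusted p = 1.23e-05), the largest of the 31 genes. Its other probe set differed further, by -3.41 in the DOX and -2.72 in the control arrays. ACAT2, the cytosolic thiolase that makes acetoacetyl-CoA, was at 9.35 with DOX and 9.82 without in ALDH-positive cells, against 10.84 with DOX and 11.02 without in ALDH-negative cells (-1.35 ± 0.22 SE, limma adjusted p = 0.0013). Both ALDH-positive arrays lay under both ALDH-negative arrays for these genes.

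IDI1, which interconverts the isoprenoid building blocks, was at 11.32 with DOX and 10.98 without in ALDH-positive cells, against 12.42 with DOX and 12.61 without in ALDH-negative cells. Its additive difference was -1.36 ± 0.16 (SE, limma adjusted p = 0.000108), but this rests on the 2 bright probe sets. The other IDI1 probe sets, at levels of 5.86 to 7.21, gave 0.70 ± 0.33 and 0.31 ± 0.29 (SE) when each probe set was fitted by itself, and neither passed. FDPS, which builds farnesyl diphosphate, was at 12.34 with DOX and 12.05 without in ALDH-positive cells, against 12.76 with DOX and 12.85 without in ALDH-negative cells (-0.61 ± 0.12 SE, limma adjusted p = 0.00334). Its adjusted p was 0.112 without the trend of the variance on level. The kinases MVK and PMVK and the decarboxylase MVD, which act between HMG-CoA and isoprenoids, did not pass, with additive differences of -0.34, 0.30 and -0.15, and MVD stayed at 6.31 or lower on all arrays, close to background.

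**Figure D2:**
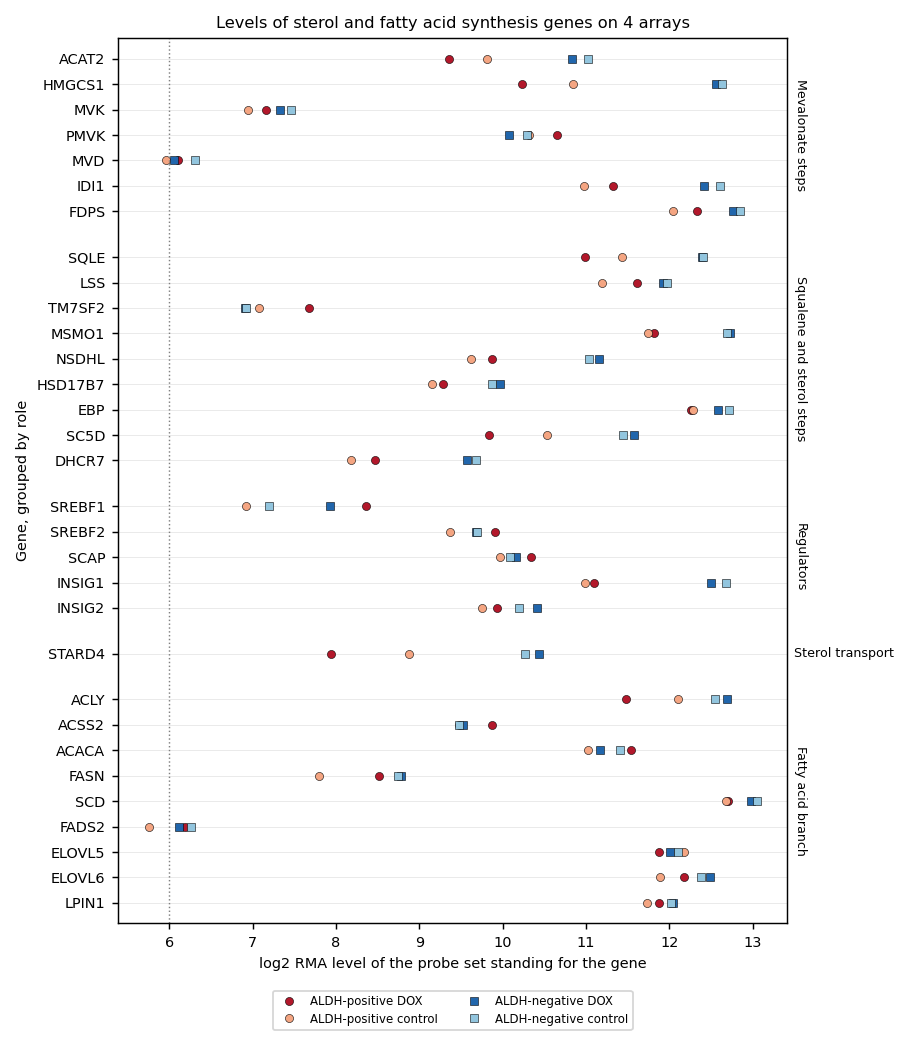
Each row is 1 gene, and the x axis gives the log2 RMA level of the probe set that stands for it on each of the 4 arrays, with a dotted line at the background level of 6. Levels compare between arrays within a row and not between rows. For HMGCS1, ACAT2 and STARD4 both ALDH-positive arrays (circles) lie clear of both ALDH-negative arrays (squares), while for SCAP and ELOVL5 the arrays mix.

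In the squalene and sterol steps, 7 of 9 measured genes fell. SQLE, the squalene epoxidase and a rate-controlling step, was at 10.99 with DOX and 11.44 without in ALDH-positive cells, against 12.39 with DOX and 12.40 without in ALDH-negative cells (-1.18 ± 0.15 SE, limma adjusted p = 0.000242). All 4 SQLE probe sets differed in the same direction. NSDHL, a dehydrogenase of the demethylation at the sterol ring, was at 9.87 with DOX and 9.62 without in ALDH-positive cells, against 11.16 with DOX and 11.04 without in ALDH-negative cells (-1.36 ± 0.21 SE, limma adjusted p = 0.000942). MSMO1, the methyl oxidase of the same demethylation, was at 11.81 with DOX and 11.74 without in ALDH-positive cells, against 12.73 with DOX and 12.69 without in ALDH-negative cells (-0.93 ± 0.12 SE, limma adjusted p = 0.00021). The DOX and control pairs of MSMO1 gave nearly the same difference, -0.92 and -0.95.

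The last steps to cholesterol moved the same way. SC5D, the sterol desaturase, was at 9.84 with DOX and 10.53 without in ALDH-positive cells, against 11.58 with DOX and 11.45 without in ALDH-negative cells (-1.33 ± 0.23 SE, limma adjusted p = 0.00147). DHCR7, the reductase of the final step of one branch, was at 8.47 with DOX and 8.18 without in ALDH-positive cells, against 9.57 with DOX and 9.68 without in ALDH-negative cells (-1.30 ± 0.26 SE, limma adjusted p = 0.00415). These are differences of more than 2-fold on average, whereas EBP and LSS moved less. EBP, the sterol isomerase, was at 12.26 with DOX and 12.28 without in ALDH-positive cells, against 12.59 with DOX and 12.72 without in ALDH-negative cells (-0.38 ± 0.11 SE, limma adjusted p = 0.0256). LSS, which closes the sterol rings as lanosterol synthase, was at 11.61 with DOX and 11.19 without in ALDH-positive cells, against 11.92 with DOX and 11.98 without in ALDH-negative cells (-0.55 ± 0.16 SE, limma adjusted p = 0.0296).

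The LSS call rests on its brightest probe set, and the other LSS probe sets gave 0.18 and 0.43 when fitted by themselves. With the mean of all probe sets LSS was at 0.02, and EBP no longer passed (limma adjusted p = 0.294). HSD17B7, a ketoreductase of the demethylation, differed by -0.70 ± 0.24 (SE) and missed the threshold (limma adjusted p = 0.0556). TM7SF2, a sterol reductase, did not pass and pointed the other way at 0.46 ± 0.29 (SE, limma adjusted p = 0.275).

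Among the regulators INSIG1 fell and the SREBP genes and SCAP did not pass. INSIG1, itself a known SREBP target, was at 11.09 with DOX and 10.99 without in ALDH-positive cells, against 12.51 with DOX and 12.69 without in ALDH-negative cells (-1.55 ± 0.15 SE, 2.94-fold lower, limma adjusted p = 2.56e-05). Its other probe sets differed further, by -3.27 and -3.11 in the DOX arrays and by -2.71 and -2.52 in the control arrays. INSIG2, its paralog, differed by -0.46 ± 0.23 (SE, limma adjusted p = 0.169). SREBF2 was at 9.91 with DOX and 9.37 without in ALDH-positive cells, against 9.68 with DOX and 9.69 without in ALDH-negative cells, so that the groups overlapped (-0.04 ± 0.25 SE, limma adjusted p = 0.927). The additive differences of SREBF1 and SCAP were 0.08 and 0.03. STARD4, a soluble sterol carrier, was at 7.94 with DOX and 8.87 without in ALDH-positive cells, against 10.43 with DOX and 10.27 without in ALDH-negative cells (-1.95 ± 0.29 SE, 3.85-fold lower, limma adjusted p = 0.000662).

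In the fatty acid branch 3 of 9 genes fell. ACLY, which cleaves citrate to cytosolic acetyl-CoA and so feeds both branches, was at 11.48 with DOX and 12.11 without in ALDH-positive cells, against 12.69 with DOX and 12.55 without in ALDH-negative cells (-0.83 ± 0.16 SE, limma adjusted p = 0.00364). ELOVL6, an elongase of long-chain fatty acids, was at 12.18 with DOX and 11.89 without in ALDH-positive cells, against 12.49 with DOX and 12.38 without in ALDH-negative cells (-0.40 ± 0.12 SE, limma adjusted p = 0.0318). SCD, the stearoyl-CoA desaturase, was at 12.70 with DOX and 12.68 without in ALDH-positive cells, against 12.98 with DOX and 13.05 without in ALDH-negative cells (-0.32 ± 0.09 SE, limma adjusted p = 0.0245). All 3 had both ALDH-positive arrays under both ALDH-negative arrays, ELOVL6 and SCD by little on these brightest probe sets. Dimmer probe sets differed further, by -1.17 and -1.36 for ELOVL6 and by -0.50, -1.40 and -1.60 for SCD when each was fitted by itself. With the mean of all probe sets the differences were -1.03 for ACLY, -0.98 for ELOVL6 and -0.96 for SCD, and all 3 passed. None of the 3 passed without a filter on level or without the variance trend, and ACLY alone passed under cyclic loess.

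The other 6 fatty acid genes did not pass. FASN, the fatty acid synthase, was at 8.51 with DOX and 7.79 without in ALDH-positive cells, against 8.78 with DOX and 8.74 without in ALDH-negative cells (-0.61 ± 0.28 SE, limma adjusted p = 0.144). ACACA, the acetyl-CoA carboxylase that commits carbon to fatty acids, differed by -0.01 ± 0.20 (SE) and ACSS2, which activates acetate, by 0.17 ± 0.25. The desaturase FADS2 (-0.22), the elongase ELOVL5 (-0.03) and the phosphatidate phosphatase LPIN1 (-0.23) completed the branch. ELOVL5 held probe sets that disagreed, one dimmer set being higher in ALDH-positive cells by 1.49 in the DOX and 1.47 in the control arrays, against -0.13 and 0.07 for the brightest. With every probe set fitted by itself, 19 of 43 sterol and 7 of 21 fatty acid probe sets fell, against 6.08% of all probe sets, and that ELOVL5 set was the only member that rose, against 7.23%.

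Groups of genes that earlier results of these data had shown to differ between the fractions were read on the same arrays. Of 14 genes of the G1/S phase, 13 fell in ALDH-positive cells, against 9.58% of all genes. Their median additive difference was -1.18, against 0.03 over all genes. Their summed log2 level was 141.23 and 143.51 on the ALDH-positive DOX and control arrays, against 159.88 and 160.92 on the ALDH-negative ones. All 8 measured ATF4 genes rose, against 13.5% of all genes, with a median of 2.07. The summed level of the 9 listed was 90.63 and 93.25, against 74.28 and 74.32. Their part in the sterol result was not tested. Of 4 endothelial markers KDR differed by 2.92 and PECAM1 by -2.93, while VWF and CDH5 stayed under 6. KDR reached 6 on the ALDH-positive arrays alone and was at 4.77 with DOX and 5.13 without in ALDH-negative cells. Of the adipocyte markers ADIPOQ and FABP4 stayed under 6 on all arrays while PLIN1 and LPL did not pass.

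Other genes of sterol and lipid handling were read on the same arrays, and this list was not tested against the 31 genes. Of 54 listed, 41 were measured, and 3 fell (7.32%, against 9.58% of all genes) while 8 rose (19.5%, against 13.5%), MID1IP1 among them, which passed the filter on level only through the ALDH-positive DOX array. ABCA1, the exporter of cholesterol to apolipoproteins, was at 8.89 with DOX and 8.45 without in ALDH-positive cells, against 6.01 with DOX and 5.60 without in ALDH-negative cells (2.86 ± 0.28 SE, limma adjusted p = 3.04e-05). ABCG1, another sterol exporter, was at 11.89 with DOX and 12.09 without in ALDH-positive cells, against 10.21 with DOX and 9.97 without in ALDH-negative cells (1.90 ± 0.19 SE, limma adjusted p = 4.17e-05). For both exporters the ALDH-positive arrays lay clear above the ALDH-negative arrays. MYLIP, the ligase that marks lipoprotein receptors for breakdown, was at 10.84 with DOX and 10.57 without in ALDH-positive cells, against 9.51 with DOX and 9.47 without in ALDH-negative cells (1.22 ± 0.23 SE, limma adjusted p = 0.00283).

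ABCA1, ABCG1 and MYLIP are known targets of the liver X receptors, which sense oxysterols, and the receptor gene NR1H3 rose by 0.80 ± 0.27 (SE, limma adjusted p = 0.0459), with 1.27 in the DOX and 0.34 in the control arrays. SREBF1 is also known as a target of these receptors and did not pass. The activity of the receptors was not measured, and their part in these differences was not tested. The elongase ELOVL7 (1.61), the carbohydrate-response factor MLXIPL (1.27) and the oxysterol-binding protein OSBP (0.45) rose as well. MID1IP1, a regulator of acetyl-CoA carboxylase, was at 7.22 with DOX and 5.49 without in ALDH-positive cells, against 4.71 with DOX and 4.54 without in ALDH-negative cells. The sterol-responsive TMEM97 (-0.38), the acyl-CoA synthetase ACSL4 (-0.76) and the dehydratase HACD3 (-0.68) fell. The other 30 measured genes of the list did not pass.

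**Figure D3:**
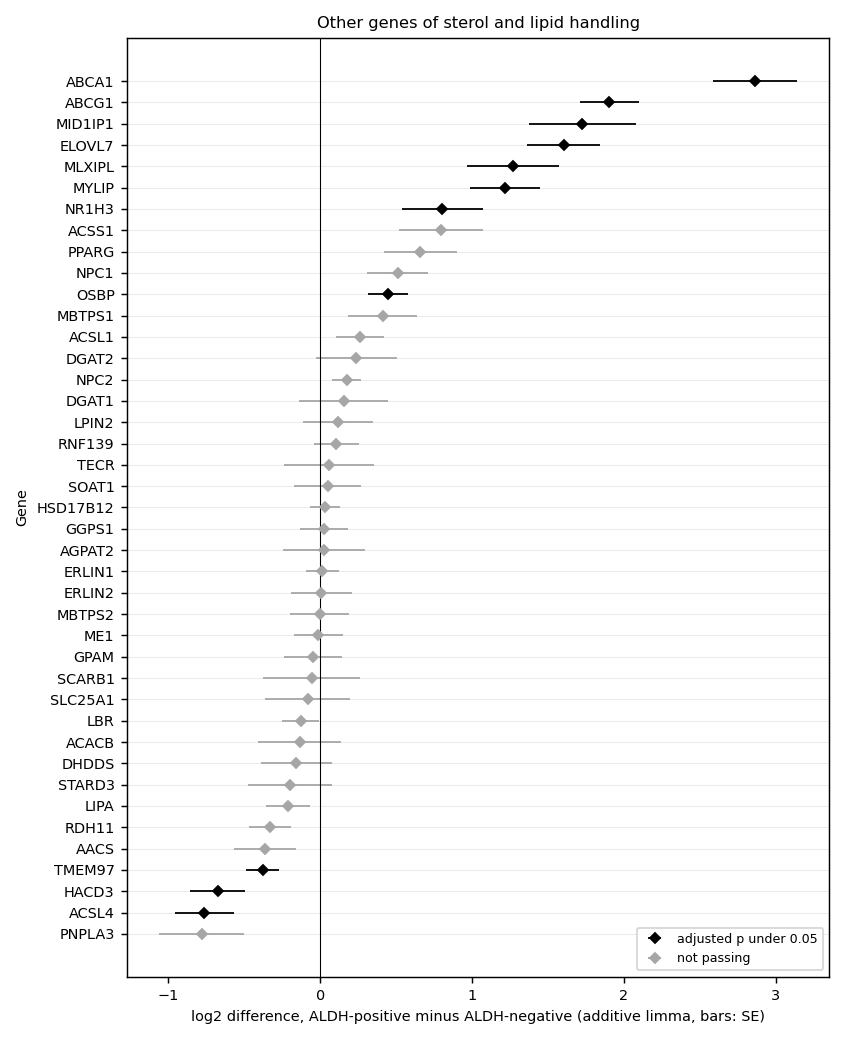
The x axis gives the additive log2 difference of ALDH-positive minus ALDH-negative cells with SE bars for 41 measured genes of sterol and lipid handling outside the 34, in order of the difference. Black points passed an adjusted p under 0.05. ABCA1 at 2.86 and ABCG1 at 1.90 lie at the top, and ACSL4, HACD3 and TMEM97 are the black points left of 0.

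With DOX, SREBF1 alone was 2-fold or more apart on its brightest probe set, in the ALDH-positive pair. Dimmer probe sets of HMGCS1, SQLE, SC5D, ACLY and SCD were more than 2-fold lower there, and one of IDI1 was higher by 1.06. The share of all probe sets that far apart with DOX was not counted, so these have no background. No value used here measures miR-100 itself. In the additive model none of 31 members passed for DOX, where 1 of 12365 genes did (0.00809% higher, 0% lower), and SREBF1 was the only member with an unadjusted limma p under 0.05. SREBF1 was at 8.36 with DOX and 6.92 without in ALDH-positive cells and at 7.92 with DOX and 7.20 without in ALDH-negative cells. The DOX difference was 1.44 in the ALDH-positive pair and 0.73 in the ALDH-negative pair (additive 1.08 ± 0.29 SE, limma adjusted p = 0.806). Both DOX arrays lay above both controls, and its other probe set gave 0.88 and 0.44.

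By size, SREBF1 was the only member 2-fold higher with DOX in ALDH-positive cells, against 3.47% of all genes, and none was 2-fold lower, against 2.3%. The sterol genes had a median DOX difference of 0.20 there and the fatty acid genes of 0.29, beside a median of 0.12 over all genes. In ALDH-negative cells no member reached 2-fold, against 0.271% of all genes higher and 0.0508% lower. The sterol median was -0.04 and the fatty acid median 0.03 there, against -0.004 over all genes, and apart from SREBF1 all members lay between -0.25 and 0.22.

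Members spread more in the ALDH-positive pair. STARD4 (-0.94), SC5D (-0.69), ACLY (-0.63), HMGCS1 (-0.61), ACAT2 (-0.47) and SQLE (-0.44) lay lowest with DOX, and FASN (0.72), TM7SF2 (0.59), SREBF2 (0.54) and ACACA (0.52) highest after SREBF1. The DOX difference of STARD4 in ALDH-positive cells lay 1.10 under that in ALDH-negative cells, where it was 0.16. On the brightest probe sets STARD4 was the only member 2-fold apart in this sense, against 2.4% of all genes lower and 3.78% higher. Dimmer probe sets also lay that far apart, given here for the ALDH-positive and then the ALDH-negative pair. These shares are by gene, and no such share was counted over all probe sets. They were at -1.65 and -0.11 for SC5D, -1.64 and -0.19 for SQLE, and -1.20 and 0.05 for SCD. Those of ACLY were at -1.36 and 0.11 and at -1.37 and -0.01. One of DHCR7 went the other way, at 0.68 and -0.36.

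**Figure D4:**
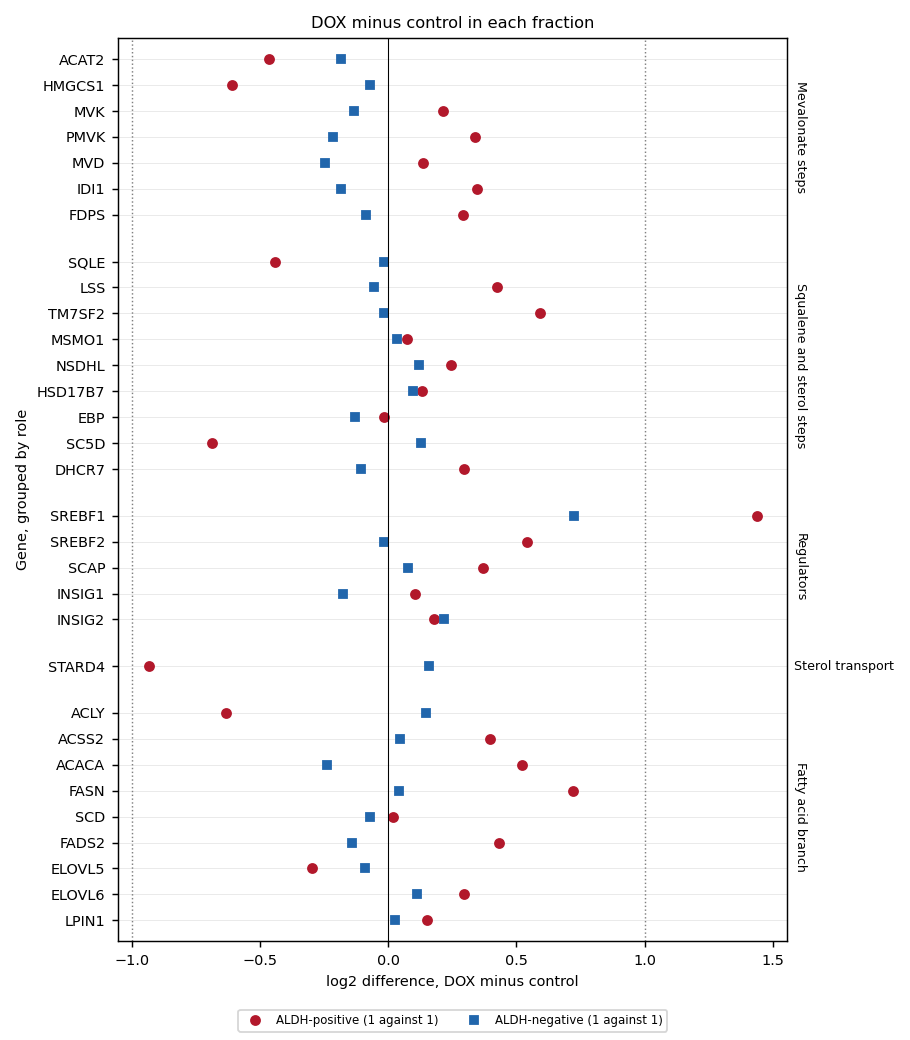
Each row is 1 gene, and the x axis gives the log2 difference of DOX minus control, 1 array against 1, as circles for ALDH-positive and squares for ALDH-negative cells, with dotted lines at 2-fold. SREBF1 lies furthest right in both fractions, at 1.44 and 0.73, and the squares otherwise stay within -0.25 and 0.22.

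The probe sets of a gene did not always share a direction. Among 19 members with at least 2 measured probe sets, these shared a sign in 11 for DOX in ALDH-positive cells and in 8 for DOX in ALDH-negative cells. For ALDH they did so in 14 in the DOX arrays and in 15 in the control arrays. The median distance between a gene's highest and lowest probe set was 0.76 and 0.25 for DOX in the ALDH-positive and ALDH-negative pair, and 0.89 and 0.45 for ALDH in the DOX and control arrays. For DOX in ALDH-positive cells, dimmer SQLE probe sets were at -1.64, -1.20 and -0.38 beside -0.44 for the brightest. SC5D held one at -1.65 beside -0.69, ACLY 2 at -1.37 and -1.36 beside -0.63, SCD 3 at -1.20, -0.80 and -0.03 beside 0.02, and HMGCS1 one at -1.14 beside -0.61. The mean of the other probe sets lay under the brightest in 14 of the 19 genes there, and the median of other minus brightest over all 19 was -0.38. For ALDH it lay under in 11 genes in the DOX arrays and in 9 in the control arrays, with medians of -0.35 and 0.01.

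Control probe sets for the ends of abundant transcripts moved on the same arrays. The 3′ minus 5′ log2 level of ACTB was 3.50 on the ALDH-positive DOX array and 3.11 on its control, against 3.87 and 3.70 on the ALDH-negative arrays. That of GAPDH was 0.33 and 0.56, against 0.98 and 0.87. The 3′ probe set of 18S ribosomal RNA was at 10.39 and 12.29, against 11.69 and 11.24. These values did not order the arrays alike, and their part in the probe set differences was not tested.

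**Figure D5:**
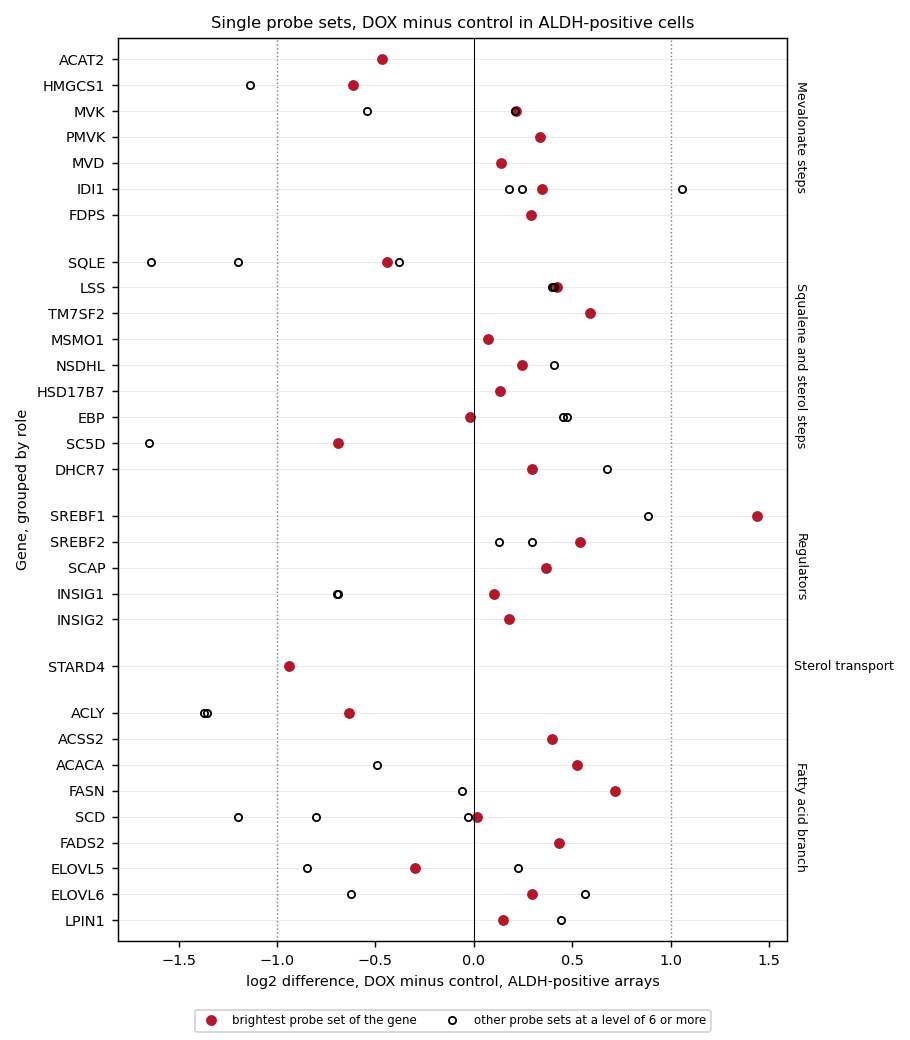
Each row is 1 gene, and each point is 1 probe set at a level of 6 or more on at least 1 array. The x axis gives its log2 difference of DOX minus control in ALDH-positive cells. Filled points are the brightest probe set of the gene and open points the others, and SQLE, SC5D, ACLY and SCD each have at least 1 open point at -1.20 or lower, while their filled points lie between -0.69 and 0.02.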

How the data were processed

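RNA of 4 sorted and cultured cell samples was measured on Affymetrix arrays, 1 array a group. The deposited values are log2 probe set levels, made with RMA per the submitters' processing notes (no version stated). The quantile step of RMA sets the arrays to nearly equal distributions, so a shift of most genes in 1 direction would be removed. Of 54675 probe sets, an annotation dated 2016 gave 41097 to 1 gene, 1801 to several and 11777 to none, and symbols were updated by gene identifier. The probe set of highest mean level stood for a gene.

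A difference between 2 arrays was called at 2-fold with a level of 6 on at least 1 of them, with no p-value. The additive model (limma 3.58.1 in R 4.3.3, lmFit and eBayes with trend) used 12365 genes at that level on any array, with two-sided p-values adjusted by Benjamini and Hochberg over all of them. Its prior had 11.6 degrees of freedom. Steps were tested on simulated data. The number of arrays limits the precision. Values in every array are given for members that passed the additive test or were 2-fold apart in a pair, and for SREBF2 and FASN, chosen after their values were seen. Of other genes of lipid handling, those that passed are named. Members and lists, G1/S and ATF4 genes included, were chosen with earlier results of these data known. Sequences are RefSeq's. Some genes are not reported here. Alternatives are given in the closing section. Python 3.11.15 and pandas 2.3.3 were used.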

Additional observations from a re-analysis of the deposited data

Results flagged for a closer look

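STARD4 was lower with DOX in ALDH-positive cells and differed little with DOX in ALDH-negative cells. Its log2 level was 7.94 with DOX and 8.87 without in ALDH-positive cells, and 10.43 with DOX and 10.27 without in ALDH-negative cells. The DOX difference was -0.94 in the ALDH-positive pair and 0.16 in the ALDH-negative pair, and the difference between them was -1.10. Apart from SREBF1 all members lay between -0.25 and 0.22 in the ALDH-negative pair, so the sign of 0.16 carries little weight. It was singled out because its signs were opposite and the DOX differences lay 2-fold or more apart. The difference was not tested, since each group held 1 array, and 2.4% of all genes lay 2-fold or more apart in that direction. STARD4 had 1 probe set, and after cyclic loess the values were -0.99 and 0.17. The rule was read on the brightest probe sets. Single dimmer probe sets of ACLY (-1.36 and 0.11), SCD (-1.20 and 0.05) and DHCR7 (0.68 and -0.36) would meet it too. How many of all probe sets would do so was not counted.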

How the results depend on the processing

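The count of sterol genes that fell with ALDH stayed between 10 and 14 of those measured under every other processing chosen at the start. Under these, 2.07% to 11.5% of all genes fell. No member rose, and no member passed for DOX under any. The count of fatty acid genes that fell was 3 of 9, against 9.58% of all genes. It was 1 under cyclic loess (7.46% of all genes fell) and 1 without shared probe sets (9.9%). Shared probe sets have names ending in _x_at or _s_at and can bind several transcripts. Without them 4 fatty acid and 16 sterol genes were left. The count was 0 without a filter on level (2.07%) and 0 without the variance trend (4.28%). Sterol genes 2-fold lower in the control arrays were 7 of 22, and 4 of 16 without shared probe sets (5.55% of all genes) and 13 of 22 at 1.5-fold (12.3% of all genes). The sterol medians for ALDH ranged from -0.68 to -0.45 in the DOX and from -0.82 to -0.69 in the control arrays. ACAT2, DHCR7, HMGCS1, INSIG1, MSMO1, NSDHL, SC5D, SQLE and STARD4 passed under each of these that measured them. IDI1 turned to 0.70 without shared probe sets, and 2 of its probe sets fitted by themselves, a fit chosen after the data were seen, gave 0.70 and 0.31. LSS turned to 0.02 with the mean of all probe sets, and 2 of its probe sets gave 0.18 and 0.43. The cause was not tested. Of all genes, 1184 fell and 1672 rose with ALDH, against 410 and 767 without a filter on level and 529 and 998 without the trend. No paired analysis was possible because each group has 1 array and no replicate numbers to match, beyond the additive fit, which takes the DOX and control pairs as repeats. Levels near 6 limit MVD and FADS2.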
